A study of Mus musculus with 4 samples.

Results

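The genes described here encode the proteins that bring a synaptic vesicle to the plasma membrane and fuse it there on a calcium signal. They were 8 genes taken by symbol: Vamp2, Snap25, Stx1a, Syt1, Cplx1, Cplx2, Sv2a and Rab3a, out of 21620 genes with a symbol and a level in every library. All 8 were found, and all 8 reached 3 FPKM (fragments per kilobase of transcript per M fragments) in at least 1 library. Poly(A) RNA had been sequenced from N2A cells, a mouse neuroblastoma line grown in serum, in 4 libraries. The control cells carried a control shRNA, the Ptbp1 knockdown cells an shRNA named shptbp1, the Ptbp2 knockdown cells one named shptbp2, and the double knockdown cells both. In every group DNA was delivered with Lipofectamine over 5 hours and the cells were grown for 3 days before RNA was taken. The products of Ptbp1 and Ptbp2 are polypyrimidine tract-binding proteins, RNA-binding repressors of exons, of which Ptbp1 is made in most dividing cells and Ptbp2 takes its place as neurons form. The comparisons ask which levels and exons of the release genes differ when either protein, or both, are depleted.

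Fusion is driven by a bundle of SNARE helices, in which VAMP2 on the vesicle joins SNAP-25 and syntaxin-1A on the plasma membrane. Synaptotagmin-1 is the calcium sensor, complexins clamp and assist the assembled bundle, SV2A is a vesicle glycoprotein needed for normal release, and RAB3A is the small GTPase that tethers vesicles near release sites. Snap25 has a pair of mutually exclusive exons, 5a and 5b, which encode the cysteine-rich stretch that anchors the protein to the membrane and part of the SNARE helix before it. Exon 5a is the common form early in development and exon 5b in the mature brain.

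There was a single library per condition, so differences could not be held against replicates, no test across samples was run, and every interval below covers counting and assembly error only. Levels are FPKM summed over the transcripts assigned to a gene, with intervals that sum the authors' 95% bounds of those transcripts. Where a gene had several transcripts, such an interval is not a 95% interval of the gene, and it widens with each transcript added. A second measure counted reads on the exons of a fixed list, in CPM (reads per M), and compared libraries by median-of-ratios scaling. Reads on that list came to between 208.155 M and 258.81 M a library, with a read counted again on each overlapping listed exon. Ptbp1 stood at 149 FPKM in control, 55.4 after Ptbp1 knockdown, 177 after Ptbp2 knockdown and 36.8 after depletion of both. Ptbp2 stood at 35.2, 76.0, 10.8 and 20.6 FPKM in the same order, so it was higher than control where Ptbp1 alone was depleted. Its depletion was smaller in the double knockdown, at 58.4% of control FPKM against 30.8% after Ptbp2 knockdown. In exon reads it was 2.33-fold and 3.69-fold lower than control in these libraries. Of 11 neuroblast markers 9 to 10 were at 1 FPKM or more in each library, with Phox2a among them. All 6 neuronal markers were at 1 FPKM or more, and their summed level was 884 FPKM in control, 901 after Ptbp1 knockdown, 742 after Ptbp2 knockdown and 720 after depletion of both. The part of that difference in the results below was not tested. Glial and Schwann cell markers summed to between 1.98 and 2.78 FPKM, with Gfap, S100b, Aqp4, Sox10 and Mog below 0.1, fibroblast markers to at most 1.44 and endothelial markers to at most 1.44.

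In control cells the 8 genes fell into an abundant and a scarce group. Cplx1 was highest at 95.3 FPKM, followed by Snap25 at 76.8, Syt1 at 39.8, Vamp2 at 28.4 and Stx1a at 22.2, and the intervals of neighbours in that order did not overlap. Sv2a at 8.65, Cplx2 at 6.72 and Rab3a at 6.60 FPKM came last, and their neighbouring intervals overlapped. The order by FPKM differed among libraries. Snap25 was first in all 3 knockdown libraries, although its interval overlapped that of Cplx1 after Ptbp2 knockdown. Vamp2 moved from the fourth place in control to the second in the Ptbp1 and double knockdowns and the fifth after Ptbp2 knockdown. Cplx2 was last in each knockdown library. Some of these places differed in exon reads per kilobase of listed exons. By that measure Stx1a (21.4 CPM) lay above Vamp2 (18.5) in control. After Ptbp1 knockdown Cplx1 (56.8) lay above Vamp2 (51.5), and Rab3a (5.56) below Cplx2 (7.59). After Ptbp2 knockdown Cplx1 (59.4) lay above Snap25 (47.8).

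**Figure D1:**
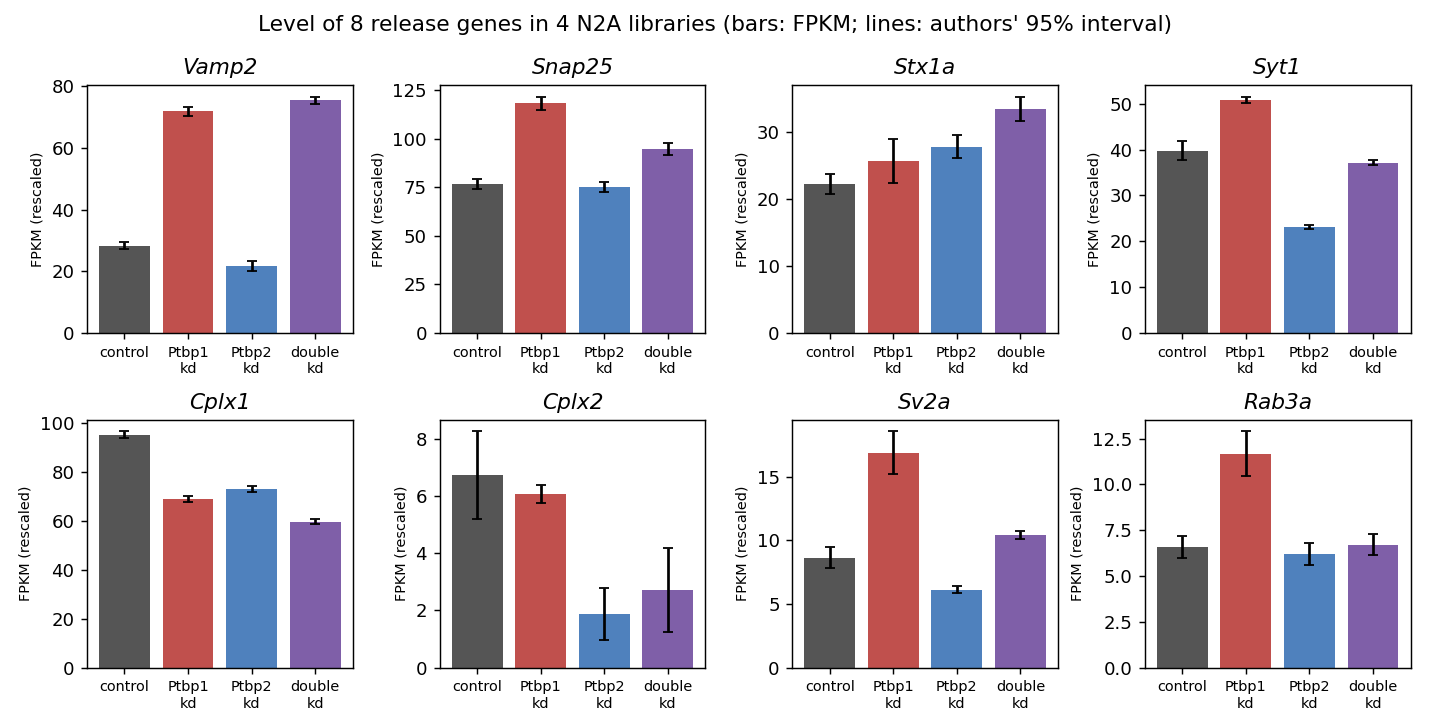
Level of each of the 8 genes in the 4 libraries. Each panel has the library on the x axis and rescaled FPKM on the y axis, and bars are single libraries (kd, knockdown). Lines are the authors' 95% bounds summed over the transcripts of the gene. Vamp2 stands at 71.8 and 75.4 FPKM in the Ptbp1 and double knockdowns and at 28.4 and 21.8 in the other 2 libraries.

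The call of a difference from control, higher or lower, required that log2(FPKM + 1) and log2(CPM + 0.1) both differed by at least 1, which is 2-fold, in the same direction with FPKM intervals that did not overlap. Genes tested had at least 3 FPKM in either library compared, a level marked OK in both, and exons on the fixed list. After Ptbp1 knockdown 1 of the 8 genes, Vamp2, was counted as higher, beside 0.63% of 9053 genes tested, and none as lower, beside 0.122%. After Ptbp2 knockdown none was counted as higher, beside 0.124% of 8846 genes, and 1, Cplx2, was counted as lower, beside 0.825%. After depletion of both 1, Vamp2 again, was counted as higher, beside 0.346% of 8967 genes, and none as lower, beside 0.546%. All 3 comparisons share the control library, so a value of that library that is off moves all of them. The median log2 difference over the 8 genes was 0.48 after Ptbp1 knockdown, -0.37 after Ptbp2 knockdown and 0.13 after depletion of both. The medians over all genes tested were 0.03, 0.02 and 0.07. In exon reads the medians over the 8 genes were 0.27, -0.41 and 0.12, beside -0.04, 0.01 and -0.02 over all genes tested. After Ptbp1 knockdown 6 of the 8 genes lay above control in FPKM and 7 in exon reads, after Ptbp2 knockdown 1 and 2, and after depletion of both 5 by each measure. Of all genes tested 53.9%, 52.5% and 58.1% lay above control in FPKM in the same order, and 44.7%, 51.2% and 47.7% in exon reads. Fewer cells that make a transcript and less RNA per cell cannot be told apart in these bulk libraries.

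**Figure D2:**
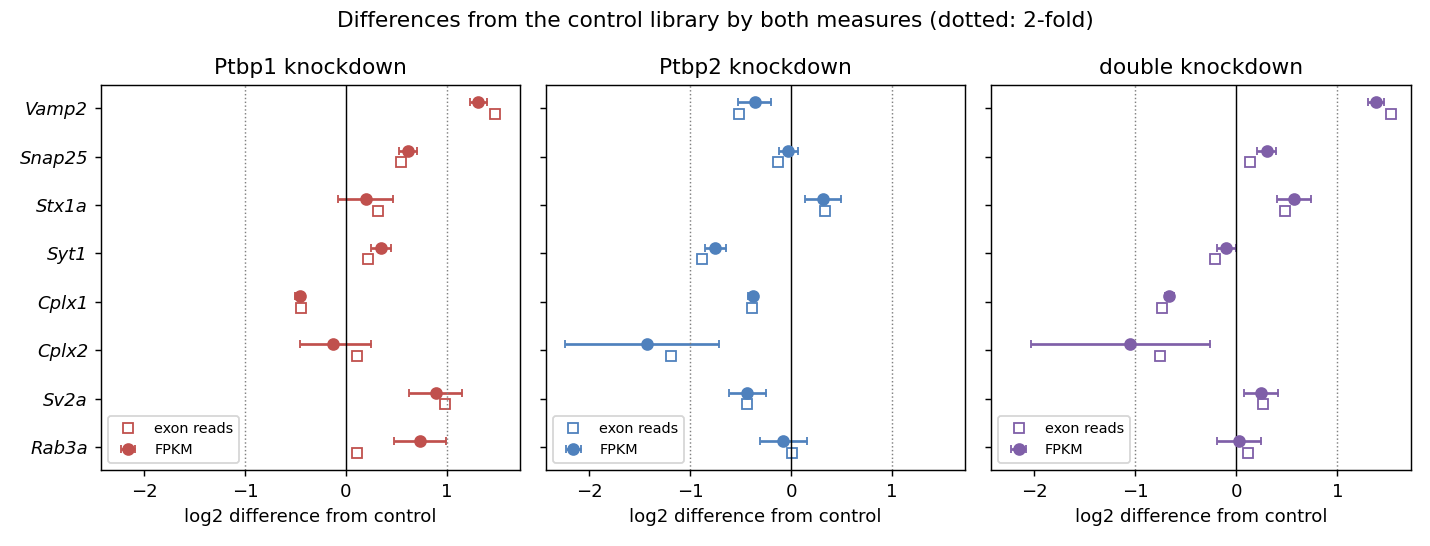
Log2 difference of each gene from the control library, 1 panel per knockdown. Filled circles are log2(FPKM + 1) with lines spanning the widest difference that both libraries' FPKM intervals allow. Open squares are exon reads, and dotted lines mark 2-fold. Vamp2 lies beyond 2-fold by both measures in the Ptbp1 and double knockdowns, Cplx2 after Ptbp2 knockdown, and the measures part for Rab3a after Ptbp1 knockdown.

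Vamp2, the vesicle SNARE, was the member with the largest difference upward. Its level was 28.4 FPKM (summed bounds 27.2 to 29.5) in control and 71.8 (70.5 to 73.1) after Ptbp1 knockdown. It was 21.8 (20.2 to 23.5) after Ptbp2 knockdown and 75.4 (74.2 to 76.6) after depletion of both. The libraries depleted of Ptbp1 were thus the high pair, and the library depleted of Ptbp2 alone lay under control. On the log2(FPKM + 1) scale Vamp2 was 2.48-fold higher after Ptbp1 knockdown and 2.60-fold higher after depletion of both, and 1.28-fold lower after Ptbp2 knockdown. Exon reads numbered 9849, 24510, 6586 and 30987, and gave 2.78-fold, 1.43-fold lower and 2.90-fold in the order Ptbp1, Ptbp2 and double knockdown. The 4 exons of Vamp2 with at least 20 reads in control lay above control by a log2 difference of 1.42 to 1.964 after Ptbp1 knockdown and 1.49 to 1.92 after depletion of both. Both calls held under all 9 alternatives of processing. Of these, FPKM alone, exon reads alone and no minimum FPKM only relax the rule, so they could not lose a call. Nor could a minimum of 10 FPKM at this level.

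The assembled structure of Vamp2 also differed among libraries. The last intron of Vamp2, 622 bases at chr11:68903530-68904151 of mm9 on the plus strand, was kept in an assembled transcript in the control and Ptbp2 knockdown libraries. Transcripts that kept it held 3.25 of 28.4 FPKM in control, which is 11.5%, and 4.02 of 21.8 after Ptbp2 knockdown, which is 18.4%. In the Ptbp1 and double knockdowns the spliced RefSeq transcript was the only one with a level above 0. The transcript in control started inside the gene and had 2 exons, and of the pair after Ptbp2 knockdown 1 also kept a further intron. Reads across the junction of exons 4 and 5, which removes the last intron, numbered 171 in control, 466 after Ptbp1 knockdown, 97 after Ptbp2 knockdown and 609 after depletion of both. Per 100 reads across the junction of exons 3 and 4 these were 43.7 (exact 95% counting interval 36.3 to 52.5), 42.6 (38.1 to 47.5), 48.3 (37.5 to 61.8) and 42.3 (38.4 to 46.6). All 4 intervals overlapped, so these ratios showed no difference beyond counting error. Exon 4 has 52 bases, less than the 100 bases of a read, so reads over it can run on into a kept intron. The part of this in the counts was not tested. In control the junction of exons 3 and 4 had 391 reads in the trio of exons 3, 4 and 5, used here, and 173 in that of exons 2, 3 and 4. The ratios therefore do not settle whether removal of the last intron differed. Earlier work on PTBP1 described last introns of presynaptic genes, that of Vamp2 included, whose splicing the protein represses, which is why the end of this intron is shown.

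The final 150 bases of the Vamp2 last intron follow, read from the GENCODE vM21 transcript Vamp2-202, which keeps the intron, at chr11:69090500-69090649 of GRCm38 on the plus strand. Capitals mark the motifs TCTT and CTCTCT, pyrimidine strings of the kind that PTB proteins bind, searched on the sense strand only, where a base could belong to both.
Vamp2 last intron, final 150 bases: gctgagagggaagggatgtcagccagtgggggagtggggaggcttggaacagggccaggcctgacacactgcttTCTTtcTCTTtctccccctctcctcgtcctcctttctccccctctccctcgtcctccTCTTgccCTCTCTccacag
The window held 3 matches to TCTT and 1 to CTCTCT, and 63.3% of its bases were C or T. Among 10953 annotated introns that lie inside an exon of another transcript of the same gene, 69.1% held TCTT in their last 150 bases and 14.8% held it at least as often as Vamp2. CTCTCT stood in 12.5% of them, and their median share of C and T was 54.0%. The matches are a description of the letters and say nothing of binding.

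Vamp2 has close relatives among vesicle SNAREs. Vamp3, the cellubrevin of housekeeping traffic, stood at 74.7 FPKM in control, 61.8 after Ptbp1 knockdown, 61.0 after Ptbp2 knockdown and 68.4 after depletion of both. By FPKM Vamp3 was therefore above Vamp2 in control and below it in the Ptbp1 (Vamp3 interval 53.4 to 70.2) and double knockdowns. In exon reads per kilobase of listed exons Vamp3 stayed above Vamp2 in these libraries, at 52.0 against 51.5 CPM and 60.3 against 53.8. Vamp1, the other neuronal form, stood at 3.93, 6.74, 2.43 and 3.92 FPKM with wide intervals. The genes whose log2 differences in exon reads over the 3 knockdowns lay nearest to those of Vamp2, among 10315 genes, included Necab3 (distance 0.26) and Pde4a (0.40). Necab3 had 1.42, -0.27 and 1.45 in the Ptbp1, Ptbp2 and double knockdowns, against 1.47, -0.51 and 1.54 for Vamp2.

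Snap25, the plasma membrane SNARE that contributes a pair of helices, had its highest level and its most reads across the junctions of exon 5b after Ptbp1 knockdown. Its level was 76.8 FPKM (74.4 to 79.3) in control, 118 (115 to 122) after Ptbp1 knockdown, 75.2 (72.7 to 77.8) after Ptbp2 knockdown and 94.9 (91.9 to 97.9) after depletion of both. The Ptbp1 knockdown was the highest library and the interval of the Ptbp2 knockdown overlapped that of control. The difference was 1.53-fold upward in FPKM and 1.46-fold in exon reads after Ptbp1 knockdown, and 1.23-fold and 1.10-fold after depletion of both. Its relative Snap23, which serves fusion outside neurons, stood at 15.6, 10.4, 17.4 and 8.77 FPKM, lower than control where Ptbp1 was depleted.

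Both versions of Snap25 exon 5 have 118 bases and lie 196 bases apart. In mm9, exon 5a is at chr2:136595479-136595596 and exon 5b at chr2:136595793-136595910, both on the plus strand and both coding. Their sequences are shown because a read is assigned to a version only by the bases that differ, which are in capitals. They were read from GENCODE vM21 transcripts, at chr2:136769743-136769860 for exon 5a and chr2:136770057-136770174 for exon 5b of GRCm38, matched to the mm9 exons by exon and intron lengths.
Snap25 exon 5a: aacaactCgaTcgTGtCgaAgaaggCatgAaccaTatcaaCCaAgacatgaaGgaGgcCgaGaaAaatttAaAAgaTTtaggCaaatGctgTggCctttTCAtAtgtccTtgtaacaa
Snap25 exon 5b: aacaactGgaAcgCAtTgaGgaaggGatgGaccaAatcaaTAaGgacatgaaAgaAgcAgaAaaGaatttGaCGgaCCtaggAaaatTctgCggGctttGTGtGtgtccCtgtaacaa
The versions differed at 31 of 118 bases and were identical at 87 (73.7%). The first 7 and the last 8 bases were the same in both, so a read that reaches no further into exon 5 than that cannot tell them apart.

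The fixed exon list is made of trios, each an exon with its neighbours on both sides and the reads across the junctions between them. It holds exon 5b and no exon 5a, so 5a was seen in assembled transcripts only. Reads across the junction of exons 4 and 5b numbered 29 in control, 387 after Ptbp1 knockdown, 8 after Ptbp2 knockdown and 69 after depletion of both. Reads across the junction of exons 5b and 6 numbered 221, 861, 178 and 301 in the trio of exons 5b, 6 and 7. Reads across the junction of exons 6 and 7, which both forms share, numbered 911, 1325, 872 and 1126 in the same trio. The Ptbp1 knockdown stood far above the other 3 libraries at both junctions of exon 5b, while the shared junction differed far less.

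Per 100 reads from exon 6 to exon 7, reads from exon 5b to exon 6 numbered 24.3 (exact 95% counting interval 20.8 to 28.1) in control, 65.0 (59.6 to 70.9) after Ptbp1 knockdown, 20.4 (17.3 to 24.01) after Ptbp2 knockdown and 26.7 (23.5 to 30.4) after depletion of both. The Ptbp1 knockdown was 2.68 times control, and its interval overlapped no other. The double knockdown, in which Ptbp1 was lower still, was 1.10 times control with an interval that overlapped it, and the Ptbp1 knockdown was 2.43 times the double knockdown. Per 100 reads from exon 6 to exon 7, reads from exon 4 to exon 5b numbered 3.18 (2.12 to 4.60), 29.2 (26.0 to 32.7), 0.917 (0.395 to 1.82) and 6.13 (4.73 to 7.82). By this junction the 4 intervals did not overlap, and the order was Ptbp1 knockdown, double knockdown, control, Ptbp2 knockdown. Both measures were chosen after the data had been seen.

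**Figure D3:**
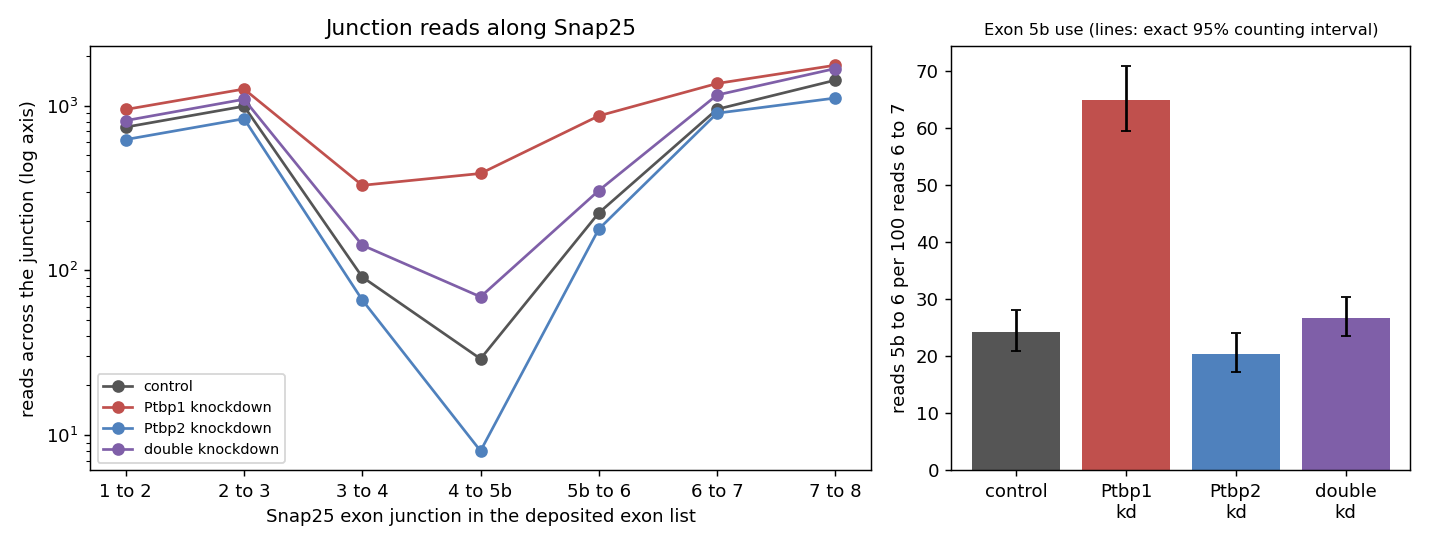
Reads along Snap25 and use of exon 5b. The left panel gives reads across each exon junction of the fixed list on a log axis, 1 line per library. Each is the largest count over the trios that hold the junction. The right panel gives reads from exon 5b to exon 6 per 100 reads from exon 6 to exon 7, with lines for the exact 95% counting interval (kd, knockdown). Libraries lie close together at the outer junctions and spread around exon 5b, where the Ptbp1 knockdown has 387 reads from exon 4 to exon 5b against 29 in control.

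The planned measure of exon 5b, inclusion in the trio of exons 4, 5b and 6, set the inclusion reads against reads that join exon 4 to exon 6 and so leave out both versions. It gave 96.9% (Wilson 95% interval 92.4 to 98.8) in control, 98.7% (97.5 to 99.4) after Ptbp1 knockdown, 94.8% (88.5 to 97.8) after Ptbp2 knockdown and 90.8% (86.0 to 94.0) after depletion of both. The difference from control was 1.82 points after Ptbp1 knockdown (interval of the difference -0.413 to 6.43), -2.08 after Ptbp2 knockdown (-8.70 to 3.35) and -6.15 after depletion of both (-11.2 to -0.547). In the double knockdown this measure thus lay below control, where both junction ratios chosen later lay above it. Reads from exon 4 to exon 6 numbered 4, 8, 5 and 19. The SpliceTrap ratio of the same trio, the authors' estimate of the share of transcripts that hold the middle exon, was 88.5%, 98.5%, 69.2% and 83.4%. Within the trio, the upstream junction had 29, 387, 8 and 69 reads and the downstream junction 223, 866, 176 and 305.

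Exon 4 has 49 bases and exon 3 has 42, less than the 100 bases of a read, so reads over them can run on into exon 5. The part of this in the counts was not tested. Reads across the junction of exons 3 and 4, present in both forms, numbered 91, 328, 66 and 142 in the trio that ends in exon 5b. The libraries stood in the same order as at the junctions of exon 5b. In the trio of exons 2, 3 and 4 the same junction had 0 reads in every library, so its count depended on the trio. Farther away, the junction of exons 1 and 2 had 740, 947, 622 and 811 reads and that of exons 7 and 8 had 1426, 1758, 1111 and 1678.

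Assembled transcripts carried both versions in every library. Those with exon 5a held 22.1 FPKM (20.8 to 23.5) in control, 19.4 (18.0 to 20.9) after Ptbp1 knockdown, 21.1 (19.6 to 22.5) after Ptbp2 knockdown and 23.5 (22.1 to 24.97) after depletion of both. Those with exon 5b held 54.7 (53.6 to 55.8), 90.5 (88.8 to 92.2), 54.2 (53.0 to 55.3) and 65.6 (64.4 to 66.8). The level with 5b was highest after Ptbp1 knockdown, while the level with 5a lay between 19.4 and 23.5 FPKM throughout. Exon 5b thus held 71.2%, 82.3%, 72.0% and 73.6% of the level of both. The share in control was far above the 24.3 reads per 100 at the junction, so the files do not settle which version was the major one in these cells. The transcript with 5a had been assembled with only the start of the last exon, at 833 bases in control against 2166 for the transcript with 5b. Reads in the rest of the last exon could then be assigned only to 5b, and the part of this in the shares was not tested. After Ptbp1 knockdown a further unspliced transcript of 7194 bases over the exon 5 region held 8.33 FPKM. With both depleted one that ended before exon 5a held 5.72.

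Stx1a, the third member of the SNARE bundle, was higher than control in all 3 knockdown libraries and was counted in none. Its level was 22.2 FPKM (20.7 to 23.7) in control, 25.7 (22.4 to 28.97) after Ptbp1 knockdown, 27.8 (26.0 to 29.5) after Ptbp2 knockdown and 33.4 (31.5 to 35.2) after depletion of both. The double knockdown was the highest, and the interval of the Ptbp1 knockdown overlapped that of control. Folds were 1.15, 1.24 and 1.48 in FPKM and 1.25, 1.26 and 1.40 in exon reads. All 12 of its listed exons with enough reads, some of which overlap and share reads, lay above control in each comparison. Exon 9 of Stx1a has an alternative start that adds 83 bases (chr5:135524781-135524974 against chr5:135524864-135524974 in mm9, plus strand). The longer form held 2.24% of junction reads (1.26 to 3.97) in control, 1.56% (0.792 to 3.05) after Ptbp1 knockdown, 4.06% (2.67 to 6.13) after Ptbp2 knockdown and 3.64% (2.46 to 5.36) after depletion of both, from at least 491 reads each, and every interval overlapped that of control. A trio of the 83 added bases alone, which averages the junctions at both their ends, gave 6.41% (4.53 to 9.004), 7.10% (5.17 to 9.67), 9.57% (7.31 to 12.4) and 9.34% (7.41 to 11.9), again with overlap.

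Syt1, the calcium sensor, was lowest after Ptbp2 knockdown. Its level was 39.8 FPKM (37.6 to 41.9) in control, 50.8 (50.1 to 51.5) after Ptbp1 knockdown, 23.2 (22.8 to 23.7) after Ptbp2 knockdown and 37.1 (36.6 to 37.6) after depletion of both. The Ptbp2 knockdown was 1.68-fold lower than control in FPKM and 1.84-fold lower in exon reads, short of the 2-fold limit. All 14 listed exons of Syt1 with enough reads, some of which overlap and share reads, lay below control there. After depletion of both, where Ptbp2 was also below control, the difference was 1.07-fold downward. Syt4 and Syt11, synaptotagmins that do not serve as fast calcium sensors, stood at 36.9, 40.5, 28.7 and 41.6 FPKM and at 25.9, 25.5, 23.8 and 21.9.

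A pair of alternative sites was seen in Syt1. An 80-base exon before the start codon (chr10:108430894-108430973 in mm9, minus strand) was included in 7.19% of junction reads (4.71 to 10.9) in control, 9.86% (6.96 to 13.8) after Ptbp1 knockdown, 7.14% (3.93 to 12.6) after Ptbp2 knockdown and 11.1% (7.75 to 15.7) after depletion of both. The intervals all overlapped. A coding exon at chr10:108073607-108073729 (minus strand) can also start 9 bases later. The start of the longer form is shown for what the shorter one lacks, in capitals, from GENCODE Syt1-201 at chr10:108636644-108636673 of GRCm38 on the minus strand.
Syt1 exon start: GCCCTTAAGgatgacgatgctgaaactgga
The shorter form held 14 of 772 junction reads in control, which is 1.81% (1.08 to 3.02), and 37 of 847 after Ptbp1 knockdown, which is 4.37% (3.19 to 5.96). It held 2.78% (1.52 to 5.04) after Ptbp2 knockdown and 2.99% (1.98 to 4.48) after depletion of both. By this count the Ptbp1 knockdown was the only library whose interval did not overlap that of control. The same junction is also counted in the trios of the exon before it, where the shorter form held 33, 45, 20 and 31 reads and made up 4.22% (3.02 to 5.87), 5.36% (4.03 to 7.09), 5.39% (3.52 to 8.18) and 4.31% (3.05 to 6.05), so that every interval overlapped that of control. A trio of the 9 bases alone had 1, 17, 0 and 3 reads for the shorter form. The counts of this junction thus did not settle whether the Ptbp1 knockdown differed.

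Cplx1 was lower than control in every knockdown library. It stood at 95.3 FPKM (93.9 to 96.6) in control, 69.1 (67.9 to 70.3) after Ptbp1 knockdown, 73.0 (71.8 to 74.2) after Ptbp2 knockdown and 59.7 (58.7 to 60.7) after depletion of both. The double knockdown was the lowest library and no pair of intervals overlapped. It was 1.37-fold, 1.30-fold and 1.59-fold lower in FPKM, and 1.36-fold, 1.30-fold and 1.67-fold lower in exon reads. None of these reached 2-fold. All 7 of its listed exons with enough reads lay below control in each comparison. Some of these overlap and share reads, as the transcript of Cplx1 has 4 exons. Cplx1 was the only member below control by both measures in all 3 libraries.

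Cplx2, the other brain complexin, was counted as lower after Ptbp2 knockdown. Its level was 6.72 FPKM (5.20 to 8.24) in control, 6.07 (5.76 to 6.38) after Ptbp1 knockdown, 1.87 (0.958 to 2.78) after Ptbp2 knockdown and 2.72 (1.26 to 4.18) after depletion of both. The pair of libraries depleted of Ptbp2 was low and their intervals lay wholly below that of control. After Ptbp2 knockdown the difference was 2.69-fold in FPKM and 2.28-fold in exon reads, and the call was lost with a pseudocount of 5 or a minimum of 10 FPKM. Where both were depleted it was 2.08-fold in FPKM but 1.68-fold in exon reads (8503 reads in control, 5458 after depletion of both), so Cplx2 was not counted there. Taken exon by exon, its 3 listed exons with enough reads had log2 differences of -1.70 to -0.71 in that library (median -1.53). After Ptbp2 knockdown they had -1.87 to -1.16 (median -1.69). After Ptbp1 knockdown the measures gave opposite signs, with log2 differences of -0.13 in FPKM and 0.11 in exon reads.

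No RefSeq transcript of Cplx2 had a level above 0. The assembled ones began upstream of the listed exons, at either of a pair of starts. Transcripts from the downstream start held 3.73 FPKM (3.09 to 4.36) in control, 4.14 (3.96 to 4.33) after Ptbp1 knockdown, 0.433 (0.0881 to 0.777) after Ptbp2 knockdown and 0.690 (0.193 to 1.19) after depletion of both. Those from the upstream start held 3.00 (2.11 to 3.88), 1.93 (1.80 to 2.05), 1.43 (0.869 to 2.00) and 2.03 (1.07 to 2.99). The downstream start thus held 55.4% and 68.3% of Cplx2 in the control and Ptbp1 knockdown libraries, and 23.2% and 25.4% in the Ptbp2 and double knockdowns. Its intervals in the libraries depleted of Ptbp2 did not reach those of the other 2.

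Sv2a, the vesicle glycoprotein, came just short of the limit after Ptbp1 knockdown. It stood at 8.65 FPKM (7.80 to 9.50) in control, 16.9 (15.3 to 18.6) after Ptbp1 knockdown, 6.13 (5.88 to 6.39) after Ptbp2 knockdown and 10.4 (10.1 to 10.7) after depletion of both. The 4 intervals did not overlap. The Ptbp1 knockdown was 1.86-fold higher than control in FPKM and 1.98-fold in exon reads, with all 13 exons above control, and the Ptbp2 knockdown was 1.35-fold lower by both measures, with all 13 below. With both depleted Sv2a was 1.18-fold higher in FPKM and 1.21-fold in exon reads. No assembled transcript kept its last intron. Its paralog Sv2b was listed at 0 in control and at 0.0246 FPKM or less in the knockdowns. Sv2c, the other paralog, stood above Sv2a in every library, at 32.2, 40.2, 16.3 and 18.8 FPKM.

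Rab3a, the vesicle GTPase, differed by FPKM and not by exon reads. It stood at 6.60 FPKM (6.003 to 7.20) in control, 11.7 (10.4 to 12.9) after Ptbp1 knockdown, 6.21 (5.63 to 6.795) after Ptbp2 knockdown and 6.72 (6.17 to 7.27) after depletion of both. Exon reads were 15.4, 16.6, 15.5 and 16.7 CPM, within 1.08-fold of control. The Ptbp1 knockdown was 1.67-fold above control in FPKM alone, and in that library 4 transcripts of Rab3a had been assembled or quantified, against 2 in each other library. The first exon of Rab3a ends at either of a pair of donor sites 5 bases apart (chr8:73278578-73278762 and chr8:73278578-73278767 in mm9, plus strand). The longer form held 54.5% of junction reads (38.0 to 70.2) in control, 67.9% (49.3 to 82.1) after Ptbp1 knockdown, 55.8% (41.1 to 69.6) after Ptbp2 knockdown and 71.9% (54.6 to 84.4) after depletion of both. With 28 to 43 reads a library the intervals overlapped, and no difference was detectable at this depth. By the FPKM of assembled transcripts the longer form held 48.5%, 49.4%, 45.4% and 70.2%. Rab3d, a relative in secretory cells, stood at 4.81, 4.77, 3.17 and 3.51 FPKM. Rab3c, another paralog, stood above Rab3a in every library, at 59.5, 67.3, 39.5 and 69.2 FPKM, and Rab3b at 0.118 or less.

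Across the 8 genes, 53 cassette trios were listed, of which 52 had at least 20 junction reads in each library. None was counted as differing from control, which required 20 points in both the SpliceTrap ratio and junction inclusion. The shares over all cassette events tested were 0.205% higher and 0.0846% lower after Ptbp1 knockdown, 0.0286% and 0.0965% after Ptbp2 knockdown, and 0.301% and 0.194% after depletion of both. At such shares none counted among 53 is near the background and says little of these exons. Junction inclusion was at least 95% in every library for 51 of the 53, and the other 2 were Snap25 exon 5b and the 80-base exon of Syt1.

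The wider release machinery was described from a list of 98 other genes of vesicle docking, priming, fusion and filling. Of these, 97 were found by symbol and 54 reached 3 FPKM in at least 1 library. After Ptbp1 knockdown 1 gene of 54 was counted as higher and none as lower. After Ptbp2 knockdown none of 52 was counted in either direction. With both depleted 2 of 52 were counted as higher, Napb among them, and none as lower. The background for these counts is the same as given above. Napb, the brain form of the SNAP cofactor that takes SNARE bundles apart after fusion, stood at 10.0 FPKM (8.24 to 11.9) in control, 19.5 (19.0 to 19.96) after Ptbp1 knockdown, 9.62 (8.57 to 10.7) after Ptbp2 knockdown and 24.8 (24.4 to 25.3) after depletion of both, where it was 2.34-fold higher. The median log2 difference over the list genes was 0.25, -0.11 and 0.13 in FPKM, and 0.15, -0.20 and 0.00 in exon reads.

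Among the list genes, 20 cassette events in 12 genes were counted in at least 1 comparison. Of 861 events tested after Ptbp1 knockdown 10 were counted as higher, beside 0.205% of all cassette events, and none as lower, beside 0.0846%. Of 835 after Ptbp2 knockdown 3 were lower, beside 0.0965%, and none higher, beside 0.0286%. Of 860 after depletion of both 13 were higher, beside 0.301%, and 5 lower, beside 0.194%. Events that share an exon are not independent. The difference in share between the list and the 8 genes was not tested. A 93-base exon of Snap23, the paralog of Snap25 (chr2:120416558-120416650, plus strand), was included in 0.701% of junction reads (0.154 to 2.02) in control, 16.4% (12.1 to 22.6) after Ptbp1 knockdown, 5.99% (3.91 to 8.72) after Ptbp2 knockdown and 40.6% (34.5 to 47.3) after depletion of both. Its 4 intervals did not overlap, and the double knockdown was the highest. A 157-base exon of Scamp5, a vesicle membrane carrier protein (chr9:57294884-57295040, minus strand), was included in 57.8% (53.1 to 62.4), 90.3% (87.7 to 92.4), 22.3% (18.1 to 26.8) and 83.8% (80.7 to 86.6). It was the 1 named exon counted in all 3 comparisons, higher in the Ptbp1 and double knockdowns and lower after Ptbp2 knockdown.

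Several of the other named exons were short and belonged to scaffolds of the active zone, the site where vesicles fuse. A 30-base exon of Unc13a, the priming factor Munc13-1, was included in 35.4% (26.6 to 45.4) in control, 78.7% (70.4 to 85.1) after Ptbp1 knockdown, 30.9% (22.4 to 41.9) after Ptbp2 knockdown and 88.6% (80.8 to 93.5) after depletion of both. A 27-base exon of Ppfia3, a liprin-alpha scaffold, was included in 10.4%, 52.0%, 13.8% and 63.3%, and a 30-base exon of its relative Ppfia1 in 14.1%, 40.5%, 11.4% and 56.0%. A 12-base exon of Erc1, an ELKS scaffold, was included in 35.9%, 69.1%, 37.8% and 79.9%. A 63-base exon of Madd, the exchange factor of Rab3 proteins, was included in 56.0%, 77.7%, 46.0% and 90.3%. A 36-base exon of Erc2 was included in 8.57% (2.96 to 22.4), 40.7% (24.5 to 59.3), 3.23% (0 to 20.4) and 34.9% (19.7 to 57.0), and the interval of the double knockdown overlapped that of control. Its value after Ptbp2 knockdown rests on 15.5 reads, below the minimum of 20, so this exon was not among those tested there. A second Ppfia1 exon, of 27 bases, was included in 23.3% (11.8 to 40.9), 54.5% (34.7 to 73.1), 41.8% (26.5 to 60.9) and 66.1% (48.8 to 80.8), and only the interval of the double knockdown lay apart from that of control. All of these were highest in the libraries depleted of Ptbp1. A 132-base exon of Erc1 went the other way, with 98.1%, 91.0%, 96.2% and 68.3%. For exons shorter than a read, junction reads were unequal at both ends: the 27-base exons of Ppfia3 and Ppfia1 had no read at the upstream junction in any library, and their inclusion above averages that 0 with the downstream junction. From the downstream junction alone the Ppfia3 exon was at 18.9% (9.48 to 34.2), 68.4% (55.5 to 79.0), 24.2% (12.8 to 41.0) and 77.6% (64.1 to 87.0). The Ppfia1 exon of 27 bases was at 37.8% (24.1 to 53.9), 70.6% (53.8 to 83.2), 59.0% (43.4 to 72.9) and 79.6% (66.4 to 88.5) by that measure.

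**Figure D4:**
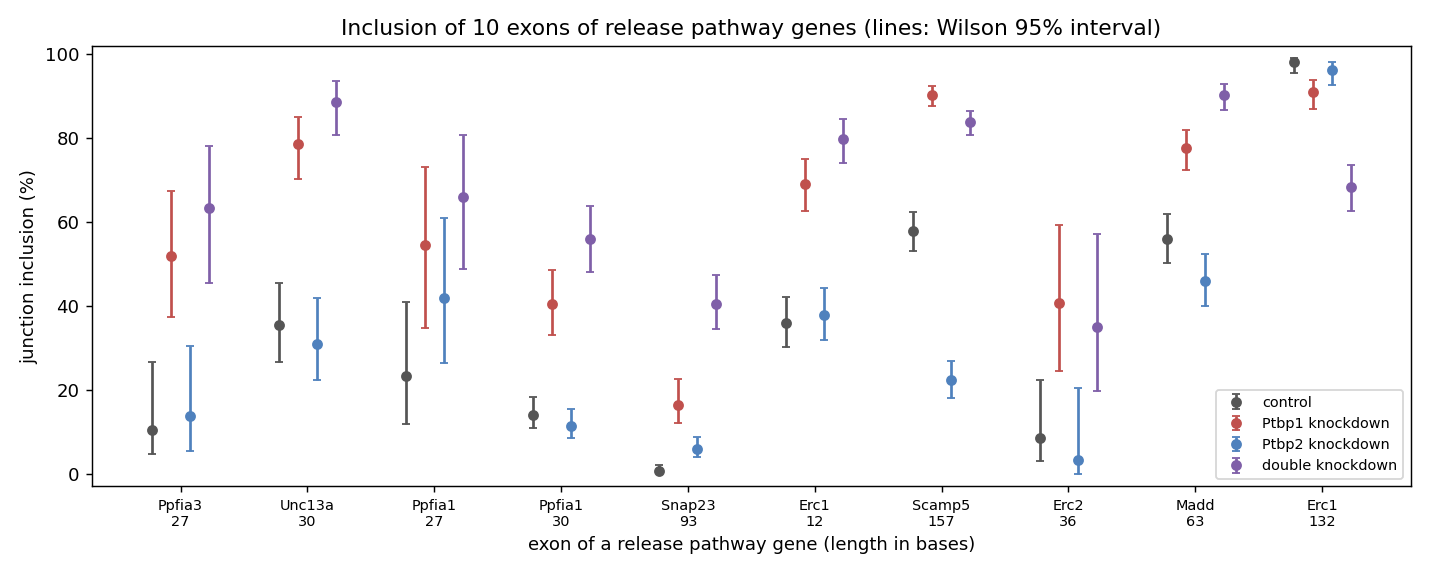
Junction inclusion of the 10 named exons of release pathway genes. The x axis gives the gene and the exon length in bases, the y axis the percentage of junction reads that include the exon, points are single libraries and lines Wilson 95% intervals. In 9 of the 10 the Ptbp1 and double knockdown libraries lie above control, and in the 132-base exon of Erc1 they lie below it.

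The genes nearest to the other members by the same distance are given by name. For Snap25 they were Spred3, D330041H03Rik and Rfng, for Stx1a Plekho2, Pusl1 and Rnf150, for Syt1 Cers6, Map2k4 and Eef1a2, and for Cplx1 Atg16l2, Bace2 and Epb41l5. For Cplx2 they were L3hypdh, Cbr3 and Il11ra1, for Sv2a Suox, Ncan and Hdac11, and for Rab3a Zfp263, Ndufaf2 and Ampd2. Distances ran from 0.016 to 0.14 outside Vamp2, whose nearest genes were at 0.26 or more.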

How the data were processed

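Per the labels' protocols, RNA was converted to strand-specific poly(A) libraries and sequenced as 100-base paired reads. Per the submitters' processing notes, the authors used CASAVA, TopHat and Cufflinks with mm9, with versions not given in the sources used here. Deposited FPKM was not on the scale of M fragments, so each library was divided by its own sum of FPKM times length. Per the file headers, the deposited transcript files hold coverage, a signal, and a score, used for coordinates only. The authors' SpliceTrap tables give an inclusion ratio (a fraction), counts of reads across 3 junctions and exon coverage for a fixed list of 228333 exon trios, from which exon reads were computed as coverage times exon length over 100. Transcripts and trios were assigned to genes by RefSeq identifier and by coordinates of the deposited transcripts. The design had assumed FPKM on its usual scale.

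Named genes were the 8 members, set paralogs, list genes counted in both measures in at least 1 comparison, the 3 nearest genes of each member among those with at least 1 CPM in every library, and the 2 knockdown targets, and some genes that this rule names are not reported here. Named exons were member trios with at least 20 junction reads in each library and inclusion between 5% and 95% in at least 1, alternative sites of the members, and the 10 counted list exons with the largest differences. Retained introns, starts, the second Snap25 measures, the further counts of the Syt1 and Stx1a sites and downstream junctions alone, and Sv2c, Rab3b and Rab3c, were added after their values were seen. The members and lists were chosen with earlier results of these data known. Shares have Wilson intervals and junction ratios exact intervals at 95%. The calls were checked on simulated libraries with counting error only, in which both measures changed together. That check does not cover variation among replicates or error of assembly. Sequences came from GENCODE vM21 transcripts. Python 3.11.15, numpy 2.4.6, pandas 2.3.3, scipy 1.17.1 and matplotlib 3.10.9 were used.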

Additional observations from a re-analysis of the deposited data

How the results depend on the processing

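No paired analysis was possible because each group held 1 library. Of 24 differences of the 8 genes, 20 kept their sign under 7 alternatives. The other 4 had main values of at most 0.13 in size (log2). They were Cplx2 in the Ptbp1 knockdown and Rab3a in the Ptbp2 knockdown by exon reads, Syt1 in the double knockdown with 1 divisor for all libraries, and Rab3a there with median centring. The median over the 8 genes in the Ptbp1 knockdown, 0.48, was 0.27 in exon reads, 0.26 as a median over exons, an alternative chosen after seeing the data, and 0.30 with 1 divisor. In the double knockdown it was 0.48 with 1 divisor against 0.13. The causes were not tested.

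Counts of all genes moved with the settings, while no setting turned a call of the 8 genes around. Higher and lower genes are given in that order against 57 and 11 in the Ptbp1 knockdown, 11 and 73 in the Ptbp2 knockdown and 31 and 49 in the double knockdown. With a pseudocount of 5 they were 7 and 6, 2 and 16, and 10 and 21. By FPKM alone they were 188 and 103, 113 and 185, and 158 and 137, and by exon reads alone 108 and 24, 22 and 136, and 53 and 113. With a pseudocount of 0.1 there were 87 and 17 higher genes in the Ptbp1 and Ptbp2 knockdowns. With a minimum of 10 FPKM there were 19 higher genes in the Ptbp1 knockdown and 45 lower in the Ptbp2 knockdown. With 1 divisor there were 27 higher in the Ptbp1 knockdown, and 55 higher and 12 lower in the double knockdown. With exon reads per M there were 7 lower in the Ptbp1 knockdown. Of the release list, 1 gene was higher and 1 lower by FPKM alone in the Ptbp2 knockdown, and 3 were lower by exon reads alone.

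Cassette events counted as higher and lower were 255 and 105 in the Ptbp1 knockdown, 35 and 118 in the Ptbp2 knockdown, and 373 and 241 in the double knockdown. With a difference of 0.1 they were 633 and 553, 227 and 655, and 772 and 907, and with 0.3 they were 110 and 23, 3 and 33, and 227 and 100. By the ratio alone they were 505 and 267, 210 and 290, and 570 and 488. With 50 junction reads 63 were lower in the Ptbp1 knockdown and 17 higher in the Ptbp2 knockdown, and with 10 reads 68 were higher there.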
